A study of Mus musculus with 23 samples.

Results

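Apoe and 8 genes of liver X receptor (LXR) lipid efflux were followed through the hippocampal microglia of all 4 groups. The 9 genes were chosen by name, with earlier results of these data known, and they are 9 of the 18759 genes that were tested. Each one has a row in the count table, and each one passed the filter on low counts. They are the apolipoprotein genes Apoe and Apoc1, the ATP-binding cassette transporter genes Abca1, Abca7 and Abcg1, the LXR genes Nr1h2 and Nr1h3, the partner receptor gene Rxra, and Mylip.

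CD11b+ cells were taken with magnetic beads from the hippocampi of female mice, and their polyadenylated RNA was sequenced in bulk, with 1 library per sample. Every mouse was homozygous for the floxed Slc11a2 allele (the gene of the iron importer DMT1) and carried 1 copy of Cx3cr1 Cre-ERT2, on a mixed 129S and C57BL/6J background. Slc11a2KD mice were given 4 mg tamoxifen by gavage on 5 days at 5 to 6 months of age, and Control mice were given corn oil. APP/PS1 mice were hemizygous for the APPswe and PSEN1dE9 transgenes, and WT mice were littermates without them. All were euthanised at 15 to 18 months. The groups held 6 Control WT, 6 Control APP/PS1, 5 Slc11a2KD WT and 5 Slc11a2KD APP/PS1 libraries. These are 22 of 23 libraries, and Control APP/PS1 0010 is the one left out of the comparisons. The Cx3cr1 promoter drives the Cre in microglia and other macrophages. Since every mouse carried the Cre and the floxed allele and only Slc11a2KD mice were given tamoxifen, the effects of tamoxifen and of recombination cannot be told apart.

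The comparisons ask how the APP/PS1 genotype, the knockdown and their combination bear on these genes. LXRs are nuclear receptors that bind oxysterols, the oxidised forms of cholesterol, and act on DNA as heterodimers with a retinoid X receptor. In macrophages and microglia they switch on genes that move cholesterol out of the cell: Abca1 and Abcg1 carry it across the membrane, and Apoe accepts it. Apoe is also among the genes best known to rise in microglia around amyloid plaques, while in the healthy brain most of it is made by astrocytes.

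Library depth, the total over all genes, ranged from 31128643 to 54872491 counts (median 41460280). The Slc11a2 gene total was 35.1 ± 5.13 CPM in Control WT and 34.2 ± 4.75 CPM in Slc11a2KD WT (SD, n = 6 and 5). Control APP/PS1 had 43.2 ± 3.93 CPM and Slc11a2KD APP/PS1 had 56.5 ± 13.5 CPM (SD, n = 6 and 5). Only the floxed exons are deleted, so a gene total does not check the knockdown, and directions follow the labels. Microglial markers were high in every library, with Cx3cr1 at 1178 CPM or more and P2ry12 at 2082 CPM or more. The library numbers ran from 5 to 17 in Control and were 1 to 4 or 18 to 23 in Slc11a2KD. What these runs of numbers stand for is not given in the labels. Each run holds Control libraries only or Slc11a2KD libraries only, so run and knockdown cannot be told apart. Among the 10 Slc11a2KD libraries, runs 1 to 4 and 18 to 23 can be compared with each other, but not with the knockdown varied. In bulk RNA, fewer cells of a type and less RNA per cell cannot be told apart.

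All expression is given as CPM, counts scaled to library size with TMM factors, and only levels compared between genes were divided by the length of the canonical transcript. Per kilobase, Apoe stood first with a mean of 393 CPM (range 158 to 1336 over the 22 libraries), and it was above the next gene, Mylip (mean 90.5), in 22 of 22 libraries. Nr1h2 (24.9 CPM per kb) and Abcg1 (23.2) followed, and Nr1h2 was above Abcg1 in only 14 of 22 libraries. Abca1 (16.96) was below Abcg1 in 21 of 22 libraries and above Rxra (15.2) in 14 of 22, so the order of Abca1 and Rxra did not hold over the libraries. Abca7 (3.18) was below Rxra in 22 of 22. Apoc1 (0.832) and Nr1h3 (0.824) were lowest, and Apoc1 exceeded Nr1h3 in 9 of 22. Of the LXR pair, Nr1h2 (LXRβ) was therefore the abundant form and Nr1h3 (LXRα) was close to the limit of detection, with as few as 10 counts in a library.

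Apoe encodes apolipoprotein E, the main lipid carrier of the brain (ENSMUSG00000002985, chromosome 7, 19430034 to 19434947, minus strand, GRCm39). In Control WT the 6 libraries gave 563 (0006), 569 (0008), 615 (0009), 665 (0012), 621 (0014) and 471 CPM (0015). In Control APP/PS1 they gave 2914 (0005), 1906 (0007), 1494 (0011), 860.5 (0013), 926 (0016) and 608 CPM (0017). WT libraries therefore lay close together, while APP/PS1 libraries were spread 4.80-fold from lowest to highest, and 5 of the 6 lay above every WT library. Library 0017 lay within the WT range.

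Apoe rose 2.49-fold in Control APP/PS1 over Control WT (log2 fold change 1.31 ± 0.28, SE; adjusted p = 0.00248, edgeR). Group means were 1452 ± 858 and 584 ± 66.9 CPM (SD, n = 6 each). Apoe was the 1 member of 9 called in this comparison, in which 10.5% of all genes tested were called and 5.99% were called as higher. An exact permutation test of the mean log2 CPM, which uses no model, gave a difference of 1.12 (two-sided p = 0.00866, adjusted p = 0.0346 over 4 comparisons). With each library left out in turn, the log2 fold change ran from 0.99 (without 0005) to 1.47 (without 0017), and the adjusted p stayed at 0.00906 or below.

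The libraries of Control APP/PS1 were the most widely spread for Apoe. Its coefficient of variation was 59.1% in Control APP/PS1, 11.5% in Control WT, 29.5% in Slc11a2KD WT and 22.1% in Slc11a2KD APP/PS1. On the log2 scale its SD in Control APP/PS1 was 0.835, larger than that of 98.8% of the 7897 genes with a mean of at least 10 CPM (median SD 0.193). In Control WT its SD of 0.173 exceeded that of 39.3% of the same genes, in Slc11a2KD WT its SD of 0.516 exceeded that of 79.0%, and in Slc11a2KD APP/PS1 its SD of 0.305 exceeded that of 43.4%. With each library left out, a setting chosen after the data were seen, the SD in Control APP/PS1 lay between 0.658 (without 0005) and 0.924 (without 0011). The SD in Slc11a2KD WT was 0.195 without 0022 (coefficient of variation 12.96%), and that in Control WT was 0.0995 without 0015 (6.94%). These ranks are a description of the libraries, with no test of a difference in spread.

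**Figure D1:**
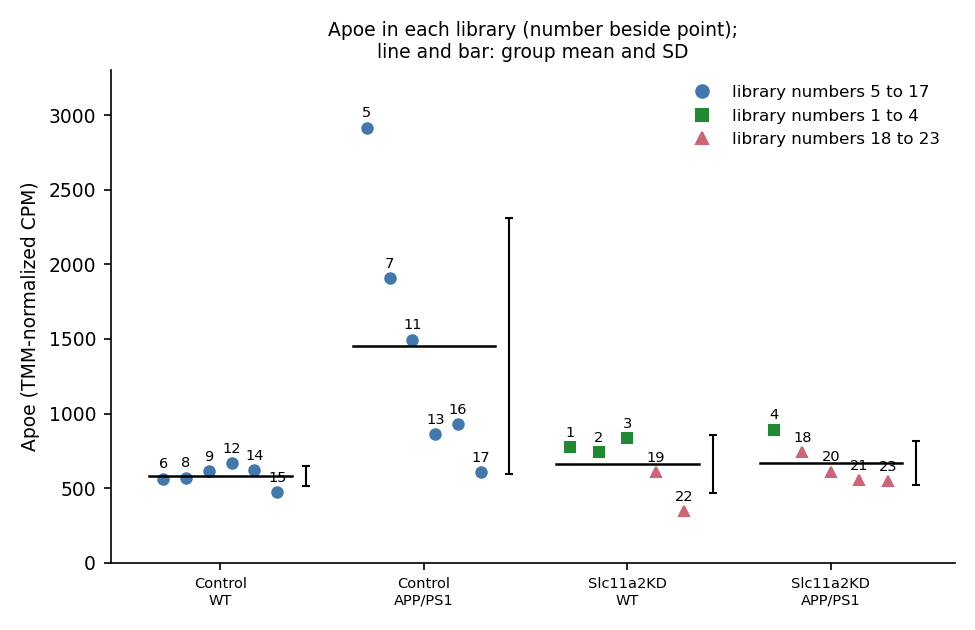
Apoe in each library, in TMM-normalized CPM on a linear axis from 0, by group. Points carry the library number and their shape and colour the run of numbers, lines are group means and bars SD. Control APP/PS1 runs from 608 to 2914 CPM, and the 3 libraries above 1000 CPM are 0005, 0007 and 0011 of that group.

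Among Slc11a2KD mice the genotypes did not separate for Apoe. The Slc11a2KD WT libraries gave 773 (0001), 743 (0002), 834 (0003), 607 (0019) and 345 CPM (0022). The Slc11a2KD APP/PS1 libraries gave 893 (0004), 741 (0018), 609 (0020), 552 (0021) and 547 CPM (0023). The groups overlapped throughout, and within each group the libraries numbered 18 to 23 lay below those numbered 1 to 4. The log2 fold change was 0.017 ± 0.30 (SE; adjusted p = 0.982), and its sign changed when library 0022 was left out (-0.14) or 0004 was left out (-0.11).

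Slc11a2KD APP/PS1 averaged 668 ± 148 CPM of Apoe against 1452 ± 858 CPM in Control APP/PS1 (SD, n = 5 and 6). The 5 knockdown libraries all lay below the 3 highest Control libraries, and 2 of them lay below the lowest one. The log2 fold change was -1.12 ± 0.29 (SE), with an unadjusted p of 0.000865 and an adjusted p of 0.205 (edgeR), so Apoe did not pass the threshold. DESeq2 gave -1.07 with an adjusted p of 0.0431. Without Slc11a2KD APP/PS1 0004, edgeR gave -1.25 with an adjusted p of 0.0202, and without Control APP/PS1 0005 it gave -0.79 with an adjusted p of 0.391. The exact permutation test gave a difference of -0.94 in mean log2 CPM (two-sided p = 0.0346, adjusted p = 0.0693 over 4 comparisons).

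Slc11a2KD WT and Control WT differed by 0.18 ± 0.29 for Apoe (SE; adjusted p = 1.0). The interaction, which asks whether the knockdown difference in APP/PS1 departs from that in WT, was -1.30 ± 0.41 (SE; unadjusted p = 0.00405, adjusted p = 0.544). Within Slc11a2KD, Apoe was lower in libraries 18 to 23 than in libraries 1 to 4 with the genotype in the model (-0.63 ± 0.17, SE; adjusted p = 0.0215). With a term for libraries 18 to 23 in the fit of all groups, the difference between Slc11a2KD APP/PS1 and Control APP/PS1 was -0.62 ± 0.37 (SE; adjusted p = 1.0), while that between Control APP/PS1 and Control WT stayed at 1.31. No Control library carries this term, so it is estimated within Slc11a2KD only and cannot move the Control difference. It treats libraries 1 to 4 as equal to those of Control. In Slc11a2KD APP/PS1 only 0004 lies outside the run. The same limits apply wherever this term is used. Adding library 0010 (593 CPM of Apoe) to Control APP/PS1 brought the Apoe log2 fold change in Slc11a2KD APP/PS1 against Control APP/PS1 to -0.99 (adjusted p = 0.595).

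Other cells that make Apoe were measured through marker lists, because RNA of such cells in the sort adds to its counts. The 12 astrocyte markers summed to between 146 and 717 CPM in Control WT and to between 156 and 588 CPM in Control APP/PS1. They summed to between 133 and 518 CPM in Slc11a2KD WT and to between 113 and 685 CPM in Slc11a2KD APP/PS1. The medians of these sums were 557, 430.0, 169 and 120.5 CPM in the same order. Library 0005 (588 CPM) was highest of Control APP/PS1 and 0004 (685 CPM) of Slc11a2KD APP/PS1, as they were for Apoe, while 0007, next for Apoe in its group, had 183 CPM. Of these 12, 1 was called as higher and 1 as lower in Control APP/PS1 against Control WT, and 0 in Slc11a2KD APP/PS1 against Control APP/PS1 (0 at an unadjusted p under 0.05). Aqp4, a defining astrocyte gene, was at most 1.40 CPM in any library and at 0 in some. Slc1a3, a glutamate transporter gene of astrocytes, had medians of 524 CPM in Control WT, 355 CPM in Control APP/PS1, 145 CPM in Slc11a2KD WT and 57.3 CPM in Slc11a2KD APP/PS1. Its maxima were 692, 529, 472 and 540 CPM in the same order, so the highest sum of each group was mostly Slc1a3. Aldh1l1 and Slc1a2, of the same list, were at most 3.82 and 9.20 CPM in any library. Gfap was 2.05 to 4.37 CPM in Control WT and 26.0 to 89.7 CPM in Control APP/PS1. It was 2.17 to 9.27 CPM in Slc11a2KD WT and 31.6 to 109.6 CPM in Slc11a2KD APP/PS1. Of the 12 choroid plexus markers, 0 were called as higher and 9 as lower in Control APP/PS1, with sums of 1.99 to 1972 CPM in Control WT and 1.49 to 5.98 CPM in Control APP/PS1. Of the 12, 2 were at 0 in every Control APP/PS1 library. In Slc11a2KD APP/PS1 the choroid plexus sums were 2.52 to 493.03 CPM, with 10 of 12 markers higher than in Control APP/PS1 at an unadjusted p under 0.05, beside 20.6% of all genes, and 0 at the adjusted threshold. Without the 4 WT libraries richest in choroid plexus counts, the Apoe difference between Control APP/PS1 and Control WT was 1.29 (adjusted p = 0.0105). The 10 border macrophage markers summed to between 248 and 510 CPM in Control WT and 110 and 236 CPM in Control APP/PS1, with 7 called as lower and 0 as higher. In Slc11a2KD APP/PS1 they summed to between 154 and 245 CPM, and 5 of the 10 were higher than in Control APP/PS1 at an unadjusted p under 0.05, with 0 called. In Control APP/PS1 against Control WT, 6 of 12 monocyte and neutrophil markers, 5 of 12 oligodendrocyte markers, 7 of 12 endothelial and mural markers, 2 of 11 neuron markers and 2 of 10 lymphocyte markers were called as lower, beside 10.5% of all genes called in either direction. Of these lists, 1 endothelial or mural marker was called as higher. The 13 microglial markers tested, of 14, included 6 called as lower and 0 as higher, with sums of 44079 to 51493 CPM in Control WT and 34200 to 39499 CPM in Control APP/PS1. The part of these cells in the Apoe values was not tested beyond that.

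Apoc1, which encodes a small apolipoprotein of the same cluster (ENSMUSG00000040564, chromosome 7, 19422540 to 19427328, minus strand), was barely detected. Its highest value was 5.28 CPM, in Slc11a2KD APP/PS1 0021, and it had 0 counts in Control WT 0008 and 0015. A count of 0 allows up to 0.0921 CPM in 0008 and 0.0886 CPM in 0015, counting error only. Means were 0.635 ± 0.740 CPM in Control WT and 1.15 ± 0.813 CPM in Control APP/PS1 (SD, n = 6 each). They were 0.782 ± 0.573 CPM in Slc11a2KD WT and 2.24 ± 1.87 CPM in Slc11a2KD APP/PS1 (SD, n = 5 each). The groups overlapped in every comparison. The log2 fold change was 0.84 ± 0.89 in Control APP/PS1 against Control WT (SE; adjusted p = 0.651) and 1.51 ± 0.99 in Slc11a2KD APP/PS1 against Slc11a2KD WT (SE; adjusted p = 0.315). The first ran from 0.56 (without 0005) to 1.59 (without 0014) with single libraries left out, and the other from 0.90 (without 0021) to 1.93 (without 0022).

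Abca1 encodes the transporter that loads cholesterol and phospholipid onto lipid-poor apolipoproteins (ENSMUSG00000015243, chromosome 4, 53030787 to 53159900, minus strand). The 250 bases before its start are shown because LXR and its partner bind direct repeats of AGGTCA set 4 bases apart. In capitals is the element found there by search, from 62 to 47 bases before the start of the transcript, on the strand opposite to the gene.

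Abca1 promoter, chr4:53159901-53160150, GRCm39, minus strand: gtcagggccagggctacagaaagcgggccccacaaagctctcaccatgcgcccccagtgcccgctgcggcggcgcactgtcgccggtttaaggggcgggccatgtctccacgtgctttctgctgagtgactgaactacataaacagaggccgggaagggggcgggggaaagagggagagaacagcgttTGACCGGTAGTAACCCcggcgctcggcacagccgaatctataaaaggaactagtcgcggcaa

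The search allowed up to 3 mismatches in the 12 fixed bases, on both strands, and the Abca1 element uses 3 of them. Of 21770 promoters of the same length, 18.0% held such a match, and of the 9 genes 1 did. With at most 2 mismatches, 2.43% of promoters and 0 of the 9 genes had one, and the limit of 3 was chosen after that result was seen. A match of this kind is common, and no match says only that these letters are not in this window.

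In Control WT, Abca1 was at 285 (0006), 237 (0008), 232 (0009), 236 (0012), 189 (0014) and 145 CPM (0015). In Control APP/PS1 it was at 232 (0005), 161 (0007), 131 (0011), 140.5 (0013), 133 (0016) and 138 CPM (0017). Of the APP/PS1 libraries, 4 lay below every WT library, opposite to the side on which Apoe lay. The log2 fold change was -0.50 ± 0.32 (SE; adjusted p = 0.371) in the fit of all groups, which did not pass. With only the Control groups in the fit, whose libraries vary less, it was -0.49 ± 0.16 (SE; adjusted p = 0.0438), and 3241 of 17400 genes were called.

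Slc11a2KD WT libraries had 243 (0001), 258 (0002), 253 (0003), 176 (0019) and 96.6 CPM (0022) of Abca1. Slc11a2KD APP/PS1 libraries had 241 (0004), 133 (0018), 78.6 (0020), 50.2 (0021) and 39.1 CPM (0023). Every library numbered 18 to 23 was below every library numbered 1 to 4 in its group, and 0004 stood with the WT libraries. The SD of Abca1 on the log2 scale in Slc11a2KD APP/PS1 was 1.06, larger than that of 97.7% of the 7897 genes.

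The log2 difference of Abca1 between Slc11a2KD APP/PS1 and Slc11a2KD WT was -0.92 ± 0.35 (SE; unadjusted p = 0.0158, adjusted p = 0.0772, edgeR), and the threshold was not passed. DESeq2 gave an adjusted p of 0.0230. Without library 0004 the log2 fold change was -1.45 (adjusted p = 0.00155), without 0022 it was -1.10 (adjusted p = 0.0252), and among libraries 18 to 23 alone it was -0.87 (adjusted p = 0.423). Against Control APP/PS1 the log2 fold change in Slc11a2KD APP/PS1 was -0.52 ± 0.34 (SE; adjusted p = 0.387), or -1.05 without 0004 (adjusted p = 0.0242). It was -0.31 without 0023 (adjusted p = 0.699) and -0.35 without 0021 (adjusted p = 0.712). A term for libraries 18 to 23 turned it to 0.27 (adjusted p = 1.0).

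Abcg1 exports cholesterol to lipoprotein particles that already hold lipid (ENSMUSG00000024030, chromosome 17, 31276649 to 31336969, plus strand). Control WT libraries were at 172 (0006), 155 (0008), 162 (0009), 116 (0012), 108 (0014) and 129 CPM (0015). Control APP/PS1 libraries were at 190.02 (0005), 169.5 (0007), 138 (0011), 120.4 (0013), 137 (0016) and 131 CPM (0017). The 2 groups overlapped, and the log2 fold change was 0.072 ± 0.16 (SE; adjusted p = 0.859).

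For the knockdown, Slc11a2KD WT libraries had 152 (0001), 172 (0002), 168 (0003), 136 (0019) and 86.2 CPM (0022) of Abcg1. Slc11a2KD APP/PS1 libraries had 139 (0004), 105 (0018), 101 (0020), 83.4 (0021) and 104 CPM (0023). Of these 5 libraries, 4 lay below every Control APP/PS1 library and 0004 did not. Against Control APP/PS1 the log2 fold change was -0.47 ± 0.17 (SE; unadjusted p = 0.0112, adjusted p = 0.205), and without 0004 it was -0.59 (adjusted p = 0.0295). Against Slc11a2KD WT it was -0.43 ± 0.18 (SE; unadjusted p = 0.0254, adjusted p = 0.104), and without 0022 it was -0.56 (adjusted p = 0.0130).

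Abca7 encodes a phospholipid transporter related to Abca1 and its human counterpart is a risk gene for Alzheimer's disease (ENSMUSG00000035722, chromosome 10, 79832280 to 79851410, plus strand). It was at 13.7 to 25.6 CPM in Control WT and at 16.02 to 43.1 CPM in Control APP/PS1, where 0005, 0007 and 0013 lay above every WT library. The means were 19.2 ± 3.97 and 27.6 ± 11.01 CPM (SD, n = 6 each). They differed by 0.53 ± 0.36 on the log2 scale (SE; adjusted p = 0.406). Its lowest values were 5.40 CPM in Slc11a2KD WT 0022 and 4.33 CPM in Slc11a2KD APP/PS1 0021. The other Slc11a2KD libraries lay between 15.8 and 29.2 CPM. No comparison of Abca7 passed the threshold.

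**Figure D2:**
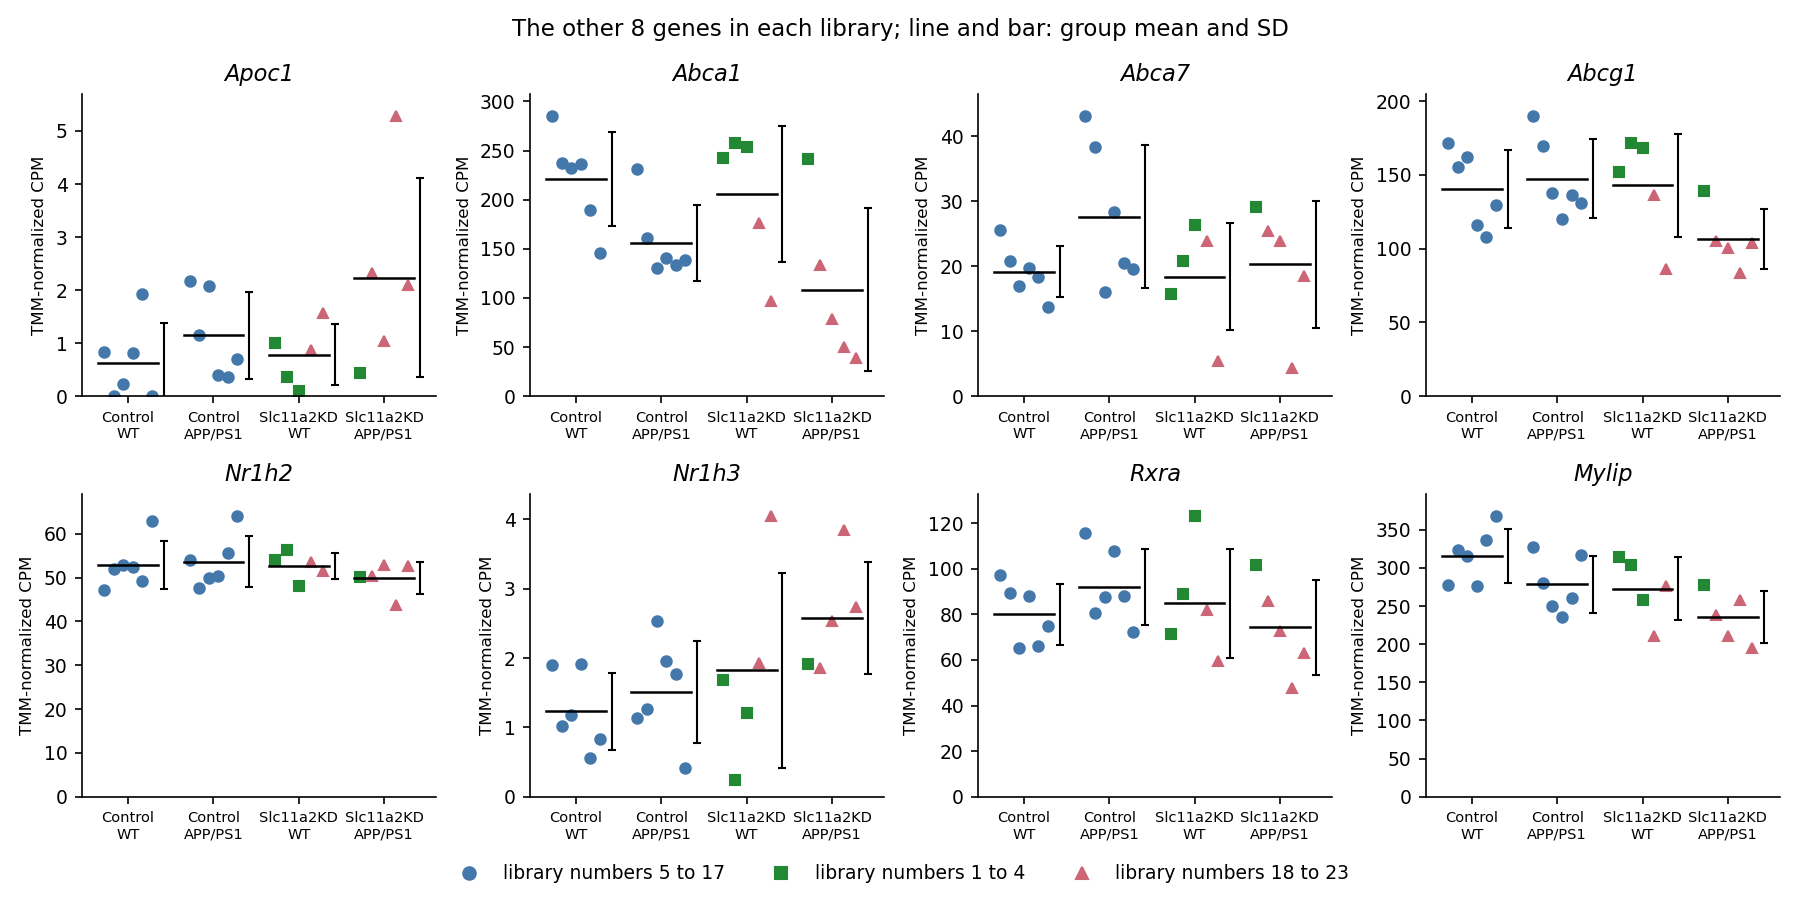
The other 8 genes in each library, in TMM-normalized CPM on linear axes from 0, 1 panel per gene, with points coloured by run of library numbers, lines for group means and bars for SD. Abca1 is as low as 39.1 CPM in libraries numbered 18 to 23 of Slc11a2KD APP/PS1, while Nr1h2 lies between 43.8 and 64.0 CPM in all 22 libraries.

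Nr1h2, the LXR that most cell types express, varied least of the 9 genes (ENSMUSG00000060601, chromosome 7, 44199036 to 44203406, minus strand). It ran from 43.8 to 64.0 CPM over the 22 libraries, and its coefficient of variation was between 5.81% and 10.9% within groups. Its log2 fold changes in the 4 comparisons lay between -0.10 and 0.023, each with an SE of about 0.10, and none passed. Nr1h3, the LXR of liver and macrophages, whose own gene is an LXR target in some cells (ENSMUSG00000002108, chromosome 2, 91014394 to 91033417, minus strand), had means of 1.23 ± 0.561 CPM in Control WT and 1.51 ± 0.736 CPM in Control APP/PS1 (SD, n = 6 each). Means were 1.82 ± 1.40 CPM in Slc11a2KD WT and 2.58 ± 0.805 CPM in Slc11a2KD APP/PS1 (SD, n = 5 each). Of the 5 Slc11a2KD APP/PS1 libraries, 3 exceeded every Control APP/PS1 library, and the log2 fold change was 0.77 ± 0.52 (SE; adjusted p = 0.415), which a term for libraries 18 to 23 turned to -0.096. Exons of Nr1h3 share 5.06% of their length with Acp2 on the opposite strand and 34 bases with Gm13783, and the strand setting of the counting is not given in the sources used here. Apoe shares 521 exon bases (12.9%) with the antisense gene Gm71725, so reads of the pair could be told apart there only if the counting used the strand. Whether Gm71725 was in the annotation used for the counting was not checked.

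Rxra encodes the retinoid X receptor that pairs with LXR and with many other nuclear receptors (ENSMUSG00000015846, chromosome 2, 27566452 to 27653330, plus strand). It had means of 80.1 ± 13.4 CPM in Control WT, 91.9 ± 16.5 CPM in Control APP/PS1, 84.9 ± 24.0 CPM in Slc11a2KD WT and 74.2 ± 20.7 CPM in Slc11a2KD APP/PS1 (SD, n = 6, 6, 5 and 5). Its lowest library was Slc11a2KD APP/PS1 0021 with 47.6 CPM. The log2 fold change was 0.20 ± 0.18 in Control APP/PS1 against Control WT (SE; adjusted p = 0.569) and -0.31 ± 0.19 in Slc11a2KD APP/PS1 against Control APP/PS1 (SE; adjusted p = 0.349). The term for libraries 18 to 23 turned the latter to 0.060.

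Mylip (also Idol) encodes a ubiquitin ligase that LXR induces (ENSMUSG00000038175, chromosome 13, 45543215 to 45565501, plus strand). Control WT held 316 ± 35.3 CPM and Control APP/PS1 278 ± 37.1 CPM (SD, n = 6 each). Slc11a2KD WT held 273 ± 41.5 CPM and Slc11a2KD APP/PS1 236 ± 33.7 CPM (SD, n = 5 each). Its log2 fold change lay between -0.24 and -0.18 in all 4 comparisons, and the lowest adjusted p was 0.265. With a correction for exon length and GC content, Slc11a2KD APP/PS1 against Slc11a2KD WT gave -0.48 (adjusted p = 0.0390).

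**Figure D3:**
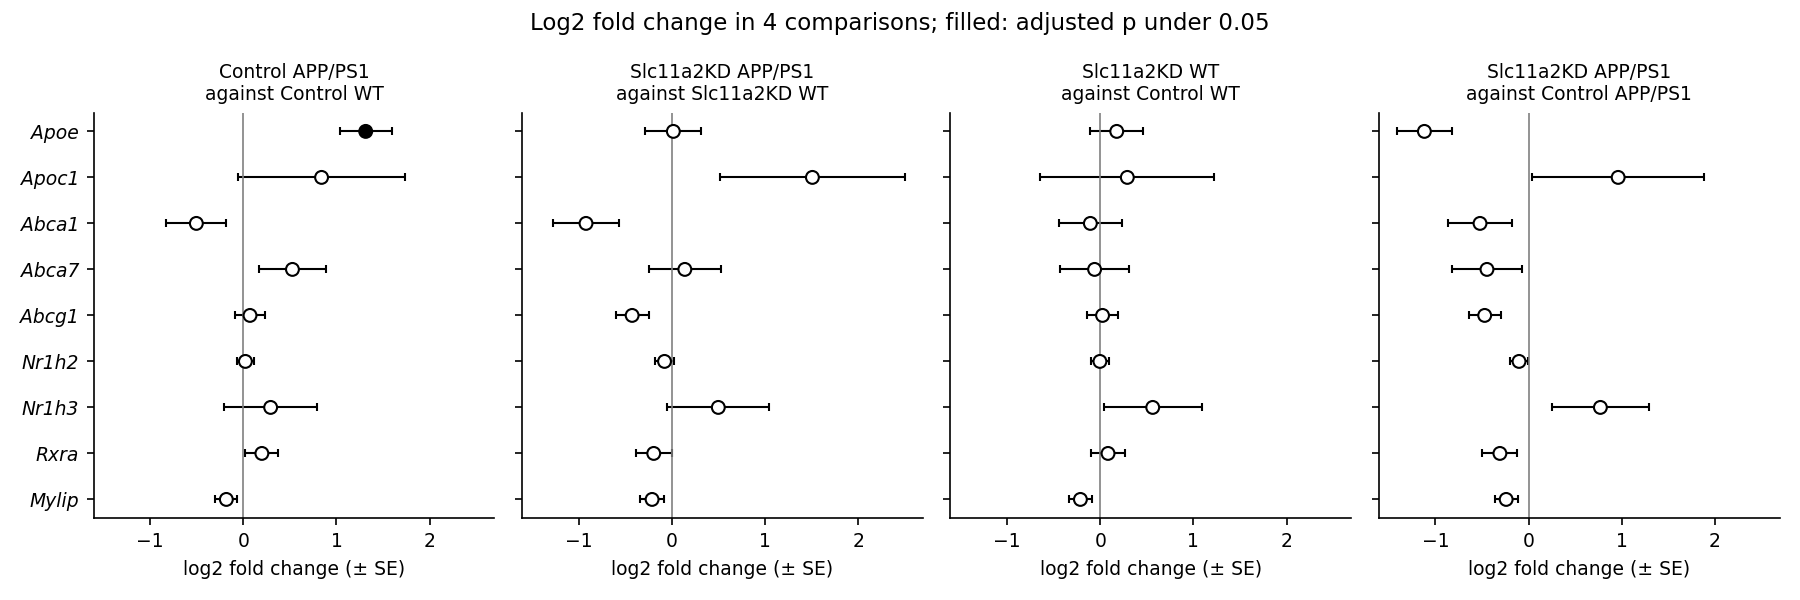
Log2 fold change of each of the 9 genes in 4 comparisons, with bars for SE and filled points for an adjusted p under 0.05 in edgeR. The only filled point is Apoe in Control APP/PS1 against Control WT, at 1.31.

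Counted over the 9 genes, 0 were called in Slc11a2KD APP/PS1 against Slc11a2KD WT (edgeR), where 16.2% of all genes were called. At an unadjusted p under 0.05 the count was 2, Abca1 and Abcg1, beside 31.7% of all genes, and DESeq2 called 1, Abca1, beside 3952 of 18759 genes. In Slc11a2KD WT against Control WT edgeR called 0 of the 9 and 0.0% of all genes, and at an unadjusted p under 0.05 it found 0 of the 9 and 5.92% of all genes. DESeq2 called 10 genes there, none of them among the 9.

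Between Slc11a2KD APP/PS1 and Control APP/PS1 edgeR called 0 of the 9 and 0.0% of all genes. At an unadjusted p under 0.05 it found 2 of the 9, Apoe and Abcg1, beside 20.6% of all genes. DESeq2 called 580 genes (3.09%), of which Apoe was 1 of the 9. Without library 0004, edgeR called 3069 of 18700 genes (16.4%), and 3 of the 9 were among them, Apoe, Abca1 and Abcg1. The interaction gave 0 called (0.0%) with edgeR, and at an unadjusted p under 0.05 it found 1 of the 9, Apoe, beside 9.08% of all genes, with 25 genes but 0 of the 9 called by DESeq2. These comparisons share Control or Slc11a2KD libraries with one another.

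Between libraries 18 to 23 and libraries 1 to 4 of Slc11a2KD, with genotype in the model, 18.8% of 17060 genes were called, 8.91% as lower. Of the 9 genes, 3 were called, all as lower: Abca1 (-1.20 ± 0.31, SE; adjusted p = 0.0199), Apoe (-0.63 ± 0.17, SE; adjusted p = 0.0215) and Abcg1 (-0.52 ± 0.15, SE; adjusted p = 0.0283). Without library 0004, the only APP/PS1 library of the first run, 0 of the 9 were called (lowest adjusted p of these 3 genes 0.109, for Apoe). Without Slc11a2KD WT 0022 all 3 were also lost, with adjusted p between 0.0847 and 0.118. Without 0002 the call of Abcg1 was lost (adjusted p = 0.0638), and without 0003 those of Abcg1 (0.0605) and Apoe (0.0517). Of the 12 choroid plexus markers, 11 were called as higher in libraries 18 to 23, and their part in these differences was not tested. Apoc1 and Nr1h3 lay on the other side, at 1.81 ± 0.82 (SE; adjusted p = 0.144) and 1.10 ± 0.57 (SE; adjusted p = 0.203). Apoc1 was also called by DESeq2, which called 4 of the 9 beside 4450 of all genes, and by edgeR without Slc11a2KD WT 0001 (adjusted p = 0.0434).

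Gene length moved with these values. Among genes with a mean of at least 100 counts, the median log2 fold change in Slc11a2KD APP/PS1 against Control APP/PS1 went from 0.50 for exon lengths under 1 kb to -0.34 for those over 10 kb. In Control APP/PS1 against Control WT the same medians were 0.36 and 0.0022. Genes with exons of more than 8 kb took 13.7% to 19.4% of the counts in libraries 18 to 23, 21.6% to 24.1% in libraries 1 to 4 and 19.01% to 22.9% in libraries 5 to 17. Abca1 has 12277 exon bases, Abcg1 7709, Abca7 7511, Rxra 6871, Nr1h3 5060, Apoe 4048, Nr1h2 3464, Mylip 3320 and Apoc1 2168. With each library corrected for exon length and GC content, a setting chosen after the data were seen, Slc11a2KD APP/PS1 against Control APP/PS1 gave -0.33 for Abca1 (adjusted p = 0.490), -0.27 for Abcg1 (adjusted p = 0.273) and -1.15 for Apoe (adjusted p = 0.178). The Abca1 and Abcg1 differences thus became smaller and that of Apoe did not. The corrected fit of Slc11a2KD APP/PS1 against Slc11a2KD WT called Abca1 (-0.79, adjusted p = 0.0313) and Mylip, 2 of the 9 beside 2869 of 18759 genes.

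**Figure D4:**
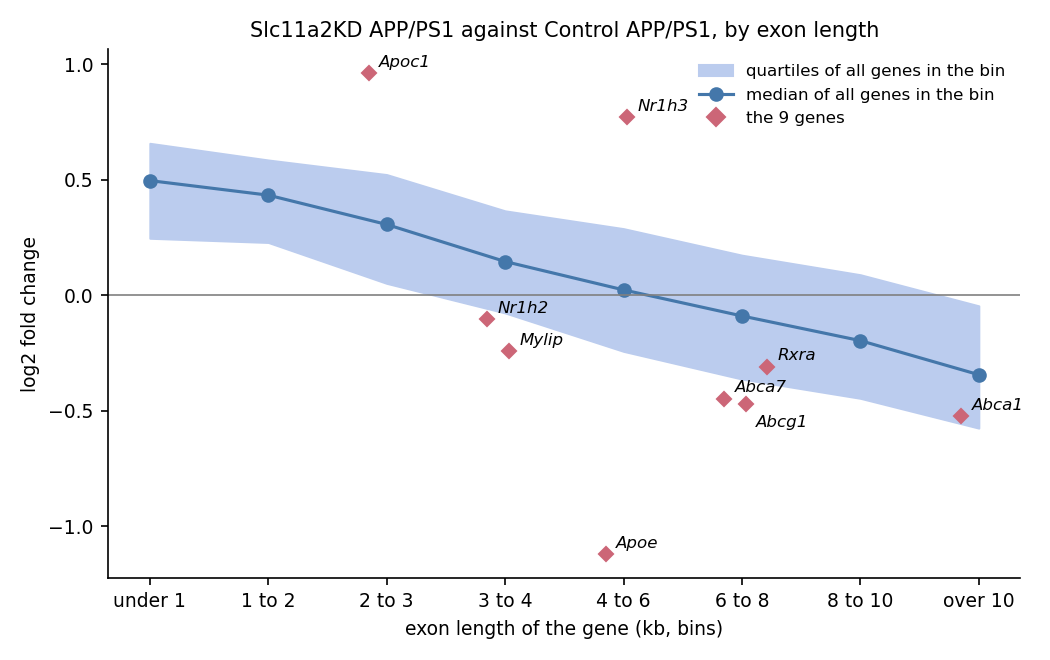
Log2 fold change in Slc11a2KD APP/PS1 against Control APP/PS1 by bins of exon length in kb, with the median of all genes in each bin as a line, their quartiles as a band and the 9 genes as diamonds, set side by side within a bin only to keep them apart. The medians go from 0.50 in the shortest bin to -0.34 in the longest, Abca1 (-0.52) lies within the band of its bin and Apoe (-1.12) lies far below that of its own.

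Within Control APP/PS1, library 0005 held the highest value of 7 of the 9 genes, Apoe, Apoc1, Abca1, Abca7, Abcg1, Rxra and Mylip. Within Slc11a2KD APP/PS1, library 0004 was highest for 6 of the 9, and 0021 was lowest for 4. Within Slc11a2KD WT, library 0022 was lowest for 5 of the 9. In Control WT the highest values were spread over 4 libraries, with at most 4 of the 9 in one of them (0006), and the share of all genes with their extremes in these libraries was not computed.

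The genes most like Apoe over the 22 libraries were sought among 11887 genes with a mean of at least 1 CPM, by the root mean square difference of log2 CPM after each gene was centred on its own mean. They were Hdac9 (0.336), Dnajb14 (0.353), Atosa (0.356), Taok3 (0.373) and Nrp1 (0.375), where a gene with no variation at all would lie 0.666 from Apoe. Hdac9 encodes a histone deacetylase and Nrp1 a semaphorin co-receptor. These 5 genes were chosen for following Apoe over these same libraries, so no test of them is given. Of the other 8 members, Abcg1 (0.553), Rxra (0.561) and Abca7 (0.620) were nearer to Apoe than a constant gene, and Mylip (0.690), Nr1h2 (0.693), Abca1 (0.861), Nr1h3 (1.19) and Apoc1 (1.69) were not.

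The other known LXR targets were taken from a list of 19, of which 15 were tested. In Control APP/PS1 against Control WT, 7 were called as higher and 2 as lower (median log2 fold change 0.73, beside -0.022 over all genes and 10.5% of all genes called). Lpl, lipoprotein lipase, rose from 25.2 ± 29.5 to 268 ± 156 CPM (SD, n = 6 each; log2 fold change 3.41 ± 0.52, SE; adjusted p = 7.35e-05). Acaca, the first enzyme of fatty acid synthesis, rose from 5.22 ± 1.78 to 42.8 ± 14.6 CPM (SD, n = 6 each; 3.03 ± 0.40, SE; adjusted p = 9.68e-06). Apoc4, a neighbour of Apoe, was at 0.364 to 6.18 CPM in Control APP/PS1 and at most 0.339 CPM in Control WT (adjusted p = 0.00252). Pltp, phospholipid transfer protein, fell from 77.6 ± 22.8 to 27.9 ± 6.39 CPM (SD, n = 6 each; -1.47 ± 0.22, SE; adjusted p = 4.91e-05), and Lpcat3, a phospholipid acyltransferase, fell from 146 ± 13.7 to 94.1 ± 16.1 CPM (-0.64 ± 0.11, SE; adjusted p = 0.000414). Most of these genes also answer to other factors, and the list does not separate LXR from them.

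Of the same 15 genes, 5 were called as higher and 3 as lower in Slc11a2KD APP/PS1 against Slc11a2KD WT, where 16.2% of all genes were called and Apoe differed by 0.017. The median log2 fold change was 0.17. In Slc11a2KD APP/PS1 against Control APP/PS1 edgeR called 0 of them, with 2 at an unadjusted p under 0.05, beside 20.6% of all genes, and a median of -0.24. The Acaca value was -0.82 ± 0.39 (SE; adjusted p = 0.237) and that of Apoc4 was 0.99 ± 0.95 (SE; adjusted p = 0.601).

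**Figure D5:**
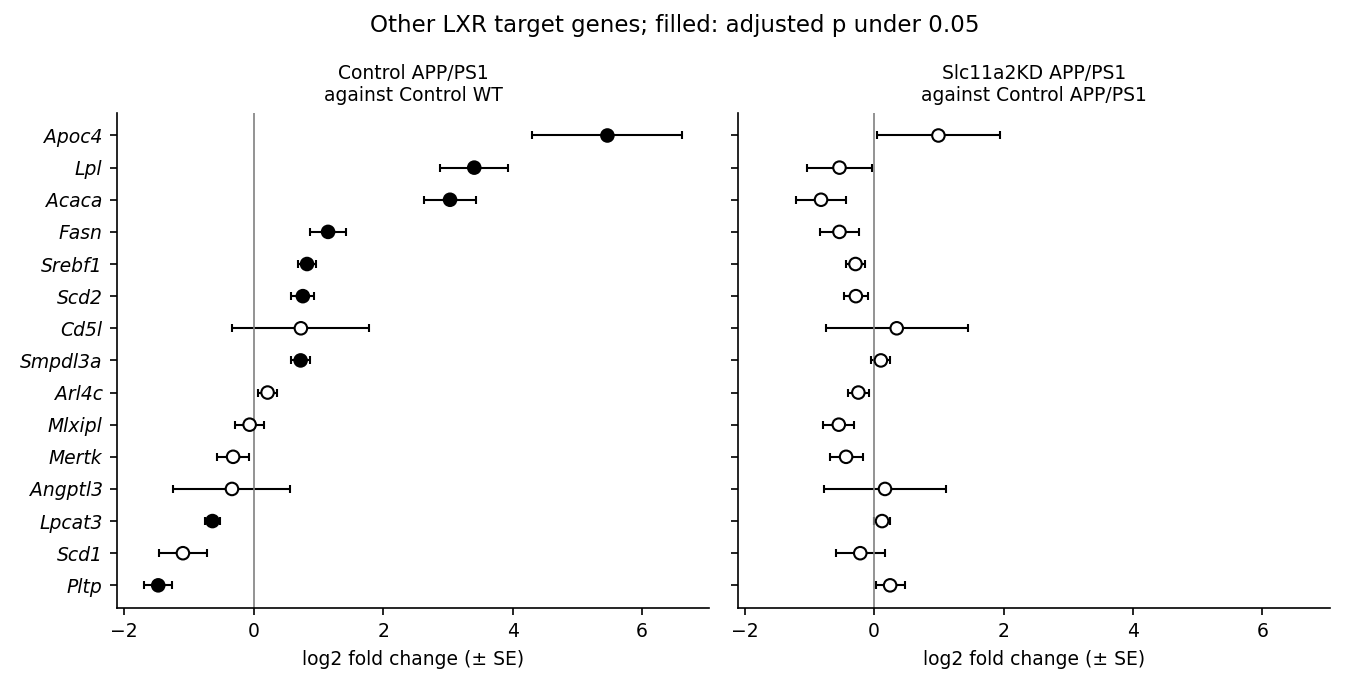
Log2 fold change of 15 other LXR target genes in Control APP/PS1 against Control WT and in Slc11a2KD APP/PS1 against Control APP/PS1, with bars for SE and filled points for an adjusted p under 0.05 in edgeR. In the first panel 7 filled points lie above 0 and 2 below it, and in the second there are none.

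Other parts of the lipid pathway were read from lists in the same way. Like the list of LXR targets, these were chosen with earlier results of these data known. Of 21 genes of sterol transfer, storage and oxysterol synthesis, 8 were higher and 0 lower in Control APP/PS1 (median 0.25, beside -0.022 over all genes, of which 10.5% were called and 5.99% as higher). Ch25h, which makes the LXR ligand 25-hydroxycholesterol, rose from 6.42 ± 6.21 to 96.9 ± 45.5 CPM (SD, n = 6 each; 3.91 ± 0.57, SE; adjusted p = 3.63e-05). Nceh1, a cholesteryl ester hydrolase, rose by 2.62 ± 0.15 (SE; adjusted p = 7.63e-11), and Plin2, a lipid droplet coat protein, by 1.66 ± 0.14 (SE; adjusted p = 2.31e-08). Between Slc11a2KD APP/PS1 and Slc11a2KD WT, 7 of the 21 were higher and 2 lower, beside 16.2% of all genes called.

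Of 18 lipoprotein receptor genes tested, 5 were higher and 2 lower in Control APP/PS1 (median 0.33), where 10.5% of all genes were called. They included Scarb1, a receptor for high-density lipoprotein (1.31 ± 0.14, SE; adjusted p = 5.38e-07), Lrpap1, a chaperone of the receptor family (1.10 ± 0.17, SE; adjusted p = 5.64e-05), Cd36, a scavenger receptor (-1.54 ± 0.22, SE; adjusted p = 2.44e-05) and Scarb2, a lysosomal membrane protein (-0.31 ± 0.10, SE; adjusted p = 0.0499). Of 15 other ABC lipid transporters tested, 2 were higher and 0 lower, a share near that of all genes. They were Abca2 (1.15 ± 0.26, SE; adjusted p = 0.00462) and the peroxisomal Abcd2 (1.15 ± 0.22, SE; adjusted p = 0.000859). Of 9 other apolipoprotein genes tested, Apoc4 was higher, and Apod (-1.91 ± 0.43, SE; adjusted p = 0.00406) and Clu (-1.48 ± 0.47, SE; adjusted p = 0.0444) were lower. Clu is also a choroid plexus and astrocyte gene, and its highest Control WT library reached 31.7 CPM beside a mean of 10.9. In Slc11a2KD APP/PS1 against Slc11a2KD WT, 16.2% of all genes were called. There 5 of the 18 receptors were higher and 3 lower. Of the 15 ABC transporters 0 were higher and 3 lower, and of the 9 apolipoproteins 1 was higher and 0 lower.

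Of 22 RXR partners and coregulators tested, 0 were higher and 1 lower in Control APP/PS1, the thyroid hormone receptor gene Thra (-0.90 ± 0.18, SE; adjusted p = 0.00114). Against Slc11a2KD WT, 1 was higher and 4 were lower in Slc11a2KD APP/PS1, where 16.2% of all genes were called. Against Control APP/PS1, edgeR called 0 genes of these 5 lists, and at an unadjusted p under 0.05 it found 3 of the 21 sterol genes, 3 of the 18 receptors, 4 of the 15 ABC transporters, 1 of the 9 apolipoproteins and 7 of the 22 RXR partners, beside 20.6% of all genes tested. The genes with the largest differences there included Abca3 (-0.71 ± 0.27, SE; adjusted p = 0.205) and Lrp1, a large receptor for Apoe-bearing particles (-0.72 ± 0.44, SE; adjusted p = 0.359). Over the 22 RXR partners and coregulators the median was -0.52, and 9 of them were called as lower between libraries 18 to 23 and 1 to 4 of Slc11a2KD, where 8.91% of all genes were.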

How the data were processed

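Hippocampal CD11b+ cells were profiled by paired-end poly(A) RNA-seq, 1 library per sample. The authors deposited raw counts per gene and a second table of normalized counts, a signal made by dividing each count by a size factor, which was not tested here. The submitters' notes name Trim Galore 0.6.7, STAR, DESeq2 1.36.0 and the build mm39, and the strand setting of the counting is not given in the sources used here. Annotation came from GENCODE for GRCm39, and 18731 of 18876 genes matched.

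The 9 genes and all lists were chosen with earlier results of these data known. Control APP/PS1 0010 was left out because the study removed a library, taken to be this one from its absence from a heat map. Genes reaching 5 counts in 3 or more libraries were kept, scaled by TMM and fitted on 22 libraries with edgeR 4.0.16 (R 4.3.3, quasi-likelihood test, prior count 2), with Benjamini-Hochberg adjustment over all genes tested and a threshold of 0.05. The SE is the log2 fold change divided by the root of the F statistic. P-values measure the spread between these libraries. Alternatives used DESeq2 1.42.0, its size factors, other filters, only the compared groups, 0010 kept, a term for libraries 18 to 23, each library left out and a correction for exon length and GC content. The code was tested on simulated data. Exact permutation tests used scipy 1.17.1. Depth ranged from 31128643 to 54872491 counts per library, and floors for 0 counts (3 counts) cover counting error only. The other genes named were, for every list, the 3 called genes that rose most and the 3 that fell most (mean CPM of 1 or more), or the 2 largest differences where no gene was called, and the 5 genes most like Apoe. Some genes that this rule names are not reported here.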

Additional observations from a re-analysis of the deposited data

Results flagged for a closer look

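Of the 36 combinations of gene and group examined for an outlying library, 2 held one, where chance gives about 1 in 20. Abca1 in Control APP/PS1 0005 was at 232 CPM, the highest of 6, far above the next library. Nr1h2 in Control WT 0015 was at 63.0 CPM, the highest of 6, beside 52.8 CPM in the next library (0009). Neither library was an outlier by this measure for Apoe.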

How the results depend on the processing

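The Apoe difference between Control APP/PS1 and Control WT kept its direction and its call in every alternative run. Requiring an absolute log2 fold change above 1 left 918 genes there and 1105 in Slc11a2KD APP/PS1 against Slc11a2KD WT. With only the compared groups in the fit, 3241 genes and 2 of the 9 were called in the first comparison and 1041 genes in the second. In the second, DESeq2 and a stricter filter (10 counts in each library) each called 1 of the 9 (beside 3952 of 18759 and 3506 of 10876 genes), the term for libraries 18 to 23 gave 1773 genes, those libraries alone gave 327, omitting the 4 WT libraries richest in choroid plexus counts gave 5135 genes and 2 of the 9, and the length and GC correction, chosen after the data were seen, gave 2 of the 9 (beside 2869 of 18759 genes). In Slc11a2KD WT against Control WT, DESeq2 called 10 genes and the omission of those 4 libraries gave 2. In Slc11a2KD APP/PS1 against Control APP/PS1, DESeq2 called 580 genes and 1 of the 9, that omission gave 1 gene, and keeping 0010 took the Apoe permutation difference to -0.79, so that its unadjusted exact p, 0.0346 without that library, rose above 0.05, while the adjusted p (0.0693) had not met it before. DESeq2 called 25 genes for the interaction. With each library left out, genes called ran from 1561 to 2156 (Control APP/PS1 against Control WT), 1977 to 4781 (Slc11a2KD APP/PS1 against Slc11a2KD WT), 0 to 1 (Slc11a2KD WT against Control WT), 0 to 3069 (Slc11a2KD APP/PS1 against Control APP/PS1), 0 to 1 (interaction) and 120 to 3987 (libraries 18 to 23 against 1 to 4). Members called ran, in that order, from 1 to 1, 0 to 2, 0 to 0, 0 to 3, 0 to 0 and 0 to 4. The Apoe permutation differences ran from 0.88 to 1.33, -0.16 to 0.16, 0.021 to 0.34 and -1.15 to -0.70 in the first 4. All the sign changes were in differences that did not pass the threshold, and the cause was not tested. In Control APP/PS1 against Control WT, Nr1h2 turned to -0.013 (DESeq2 and its size factors), -0.0063 (0010 kept), -0.022 (stricter filter) and -0.13 (length and GC), and Abcg1 to -0.017 (0010 kept), -0.016 (4 libraries omitted) and -0.015 (length and GC). In Slc11a2KD APP/PS1 against Slc11a2KD WT, omitting the 4 libraries turned Apoe to -0.22 and Abca7 to -0.044, the correction turned Apoe to -0.11, and libraries 18 to 23 alone turned Nr1h3 to -0.13. In Slc11a2KD WT against Control WT, the term for libraries 18 to 23 turned Apoc1 to -0.56, Abca1 to 0.33, Abca7 to 0.15, Nr1h2 to 0.00016 and Nr1h3 to -0.050, and the omission turned Apoc1 to -0.64, Abca1 to 0.077, Abca7 to 0.024, Nr1h2 to 0.055 and Nr1h3 to -0.17. In Slc11a2KD APP/PS1 against Control APP/PS1, the term turned Apoc1 to -0.69, Abca1 to 0.27, Nr1h3 to -0.096 and Rxra to 0.060. For the interaction, Mylip turned to 0.023 (DESeq2 and its size factors), 0.019 (stricter filter), 0.069 (0010 kept) and 0.083 (the term), and the term turned Apoc1 to -0.13 and Nr1h3 to -0.046. With each library left out, differences ran across 0 for Abcg1 (-0.013 to 0.14) and Nr1h2 (-0.038 to 0.079) in Control APP/PS1 against Control WT, and for Apoe (-0.14 to 0.12) and Abca7 (-0.097 to 0.40) in Slc11a2KD APP/PS1 against Slc11a2KD WT. They did so in Slc11a2KD WT against Control WT for Abcg1 (-0.049 to 0.15), Nr1h2 (-0.033 to 0.054), Rxra (-0.087 to 0.18), Apoc1 (-0.14 to 1.04), Abca1 (-0.20 to 0.059) and Abca7 (-0.22 to 0.16), for the interaction in Mylip (-0.10 to 0.042), Nr1h3 (-0.077 to 0.74) and Apoc1 (-0.079 to 1.10), and for Nr1h2 between libraries 18 to 23 and 1 to 4 (-0.027 to 0.034). No paired analysis was possible because the labels name no litters or pairs. Depth limits Apoc1 and Nr1h3, which had as few as 0 and 10 counts in a library.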

Other observations

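Control APP/PS1 0010, the library left out of the comparisons, held 593 CPM of Apoe, 61.5 CPM of Abca1, 85.0 CPM of Abcg1 and 149 CPM of Mylip. It held 45.2 CPM of Rxra, 45.7 CPM of Nr1h2, 15.3 CPM of Abca7, 1.87 CPM of Apoc1 and 1.35 CPM of Nr1h3. For Apoe, Abca1, Abca7, Abcg1, Nr1h2, Rxra and Mylip these values, scaled together with all 23 libraries, lay below those of all 6 Control APP/PS1 libraries that were used.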
